A study of Rattus norvegicus with 6 samples.

Results

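Integrins are receptors that tie a cell to the matrix around it, and laminins are matrix proteins that some of them bind. The genes described here are the rows of the deposited expression table named as an integrin alpha subunit (Itga and a number or letter), an integrin beta subunit (Itgb and a number) or a laminin chain (Lama, Lamb or Lamc and a number). There were 35 of them among 32662 rows: 16 alpha subunits, 8 beta subunits and 11 laminin chains. Itgam was not among them, because the table joins it with its neighbour Itgad in 1 row, which is given separately below. Members were taken by name and not by level.

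RNA was sequenced from primary oligodendrocyte precursors, which divide and can mature into the cells that make myelin, cultured from the cerebral cortex of Sprague-Dawley rats aged 1 to 2 days. All cultures began as mixed glia in medium with 20% serum and were then kept for 4 to 5 days on plates coated with poly-DL-ornithine, with PDGF and FGF (10 ng/ml each) and B27 supplement. There were 3 control libraries and 3 libraries from cells left for 72 hours with preformed fibrils of human alpha-synuclein, a protein that aggregates in Parkinson disease and multiple system atrophy. The labels do not say whether replicates were separate cultures, so p-values measure the spread between these libraries, which may be technical.

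An integrin is a pair of 1 alpha and 1 beta subunit, both of which cross the membrane. The beta 1 subunit joins many alpha subunits, whereas alpha v joins beta 1, beta 3, beta 5, beta 6 and beta 8. In oligodendrocyte lineage cells, alpha 6 beta 1 is known as a laminin receptor of survival and myelination, and the alpha v integrins as receptors of matrix proteins such as vitronectin at different stages. The alpha v beta 8 integrin is known for activating latent TGF-beta. A laminin is a trimer of an alpha, a beta and a gamma chain, and those with the alpha 2 chain are the laminins best known in myelination. Beta 2 integrins, with alpha L, alpha M or alpha X, belong to leukocytes, including microglia.

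Values are in FPKM, fragments scaled to gene length and to the library's total. The libraries differed in quality in ways that touch every value below. In replicate 1, 80.3% (control) and 75.6% (fibril) of all FPKM belonged to mitochondrial genes, compared with 12% to 40.1% in the other 4 libraries. Read from the spacing of low values and set to 1 in control replicate 2, the worth of 1 fragment was 4.04 (control) and 6.97 (fibril) in replicate 1, and between 0.817 and 1.96 elsewhere. Fibril replicate 3 also stood apart for several genes below, and its values are given with each. The table lists Hprt1 and Rps6, genes that all cells use, at 0 throughout, so a 0 can be a failed estimate. All 18 oligodendrocyte lineage markers found in the table were above 0 in at least 1 library, and Sox10, a factor of the lineage, had 135 to 332 FPKM. All 18 microglia and macrophage markers and all 13 neuron markers were above 0 in at least 1 library too. Being above 0 therefore does not tell cell types apart. By summed level, the oligodendrocyte lineage markers had 2439 to 9408 FPKM per library. Neuron markers had 374 to 955 FPKM, astrocyte markers 127 to 309 FPKM, and microglia and macrophage markers 16.5 to 114 FPKM. Single genes carried much of these sums. Bcas1, of the oligodendrocyte lineage list, had 711 to 6462.5 FPKM. Of the neuron list, Map2 had 55.1 to 454 FPKM and Gap43 186 to 323 FPKM. Sums of unlike lists therefore do not rank cell types.

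Most of the family was listed at 0 or at low levels in these cultures. Of the 35 genes, 6 were listed at 0 in every library (Itga4, Itga11, Itgb4, Itgb6, Lamb3 and Lamc3), and 17 were above 0 but under 1 FPKM throughout, with 0.840 FPKM as their highest value. The other 12 reached 1 FPKM in at least 1 library, and 8 of them reached it in at least 3 libraries and were tested: Itgav, Itga8, Itgae, Itgb1, Itgb5, Itgb8, Lama4 and Lamc1. The most abundant by mean FPKM was Itgb1, followed by Itgav, Itgb8, Lama4 and Lamc1. Lamc1, the lowest of these 5, stood at percentile 83.5 of all rows by mean FPKM. In the deposited coordinates, whose build is not named, Itgav (ENSRNOG00000004912) lies on chromosome 3 from 71114099 to 71202411, Itgb1 (ENSRNOG00000010966) on chromosome 19 from 61677541 to 61725535 and Itgb8 (ENSRNOG00000006569) on chromosome 6 from 147094096 to 147172813. Lama4 (ENSRNOG00000000599) lies on chromosome 20 from 44060730 to 44220702 and Lamc1 (ENSRNOG00000002680) on chromosome 13 from 70658706 to 70783515.

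**Figure D1:**
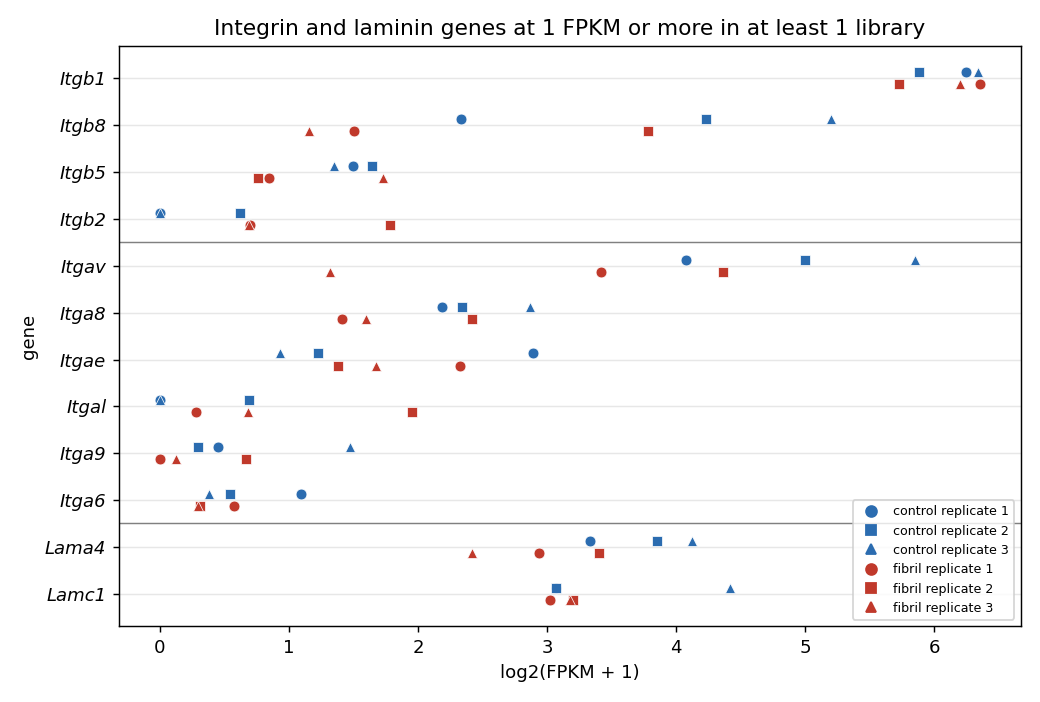
Level of the 12 genes that reached 1 FPKM, as log2(FPKM + 1), in each library, with controls in blue, fibrils in red and a marker shape for each replicate; lines separate beta subunits, alpha subunits and laminins. Itgb1 lies highest with 52.0 to 80.7 FPKM, while Itgav and Itgb8 spread widely and are lowest in fibril replicate 3.

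The upstream sequences of these 5 genes are shown because these genes were the most abundant, and because Itgav, Itgb8 and Lama4 were lower with fibrils in every replicate number while Itgb1 was level. Each run is the 250 bases before the gene's RefSeq start in build GRCr8, 5′ to 3′ on the gene's strand, and 27 of the 35 genes had such an entry. Capitals mark matches on either strand to the motifs searched. These were the GC box, written GGGCGG, and the CCAAT box. The TATA box was searched as TATAAA. The AP-1 site was searched as TGANTCA. The cAMP response element was TGACGTCA. The E-box was CACGTG. The windows are chr3:89245132-89245381 (plus strand) for Itgav, chr6:146351246-146351495 (minus) for Itgb8, chr19:73602027-73602276 (plus) for Itgb1, chr20:43946648-43946897 (plus) for Lama4 and chr13:68051987-68052236 (minus) for Lamc1.
Itgav: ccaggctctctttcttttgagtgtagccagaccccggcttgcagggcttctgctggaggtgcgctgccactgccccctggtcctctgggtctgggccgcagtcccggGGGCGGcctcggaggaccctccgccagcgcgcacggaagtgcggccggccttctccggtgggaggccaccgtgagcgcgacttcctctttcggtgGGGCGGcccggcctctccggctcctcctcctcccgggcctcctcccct
Itgb8: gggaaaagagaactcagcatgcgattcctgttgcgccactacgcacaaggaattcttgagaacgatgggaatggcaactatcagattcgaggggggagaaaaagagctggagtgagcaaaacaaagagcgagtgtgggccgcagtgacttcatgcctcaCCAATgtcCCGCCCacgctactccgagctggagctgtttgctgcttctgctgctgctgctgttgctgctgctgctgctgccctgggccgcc
Itgb1: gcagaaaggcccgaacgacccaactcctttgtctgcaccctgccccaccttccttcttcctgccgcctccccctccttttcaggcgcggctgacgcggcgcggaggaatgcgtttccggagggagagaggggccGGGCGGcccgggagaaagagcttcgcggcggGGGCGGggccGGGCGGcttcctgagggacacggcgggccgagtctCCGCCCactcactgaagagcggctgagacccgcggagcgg
Lama4: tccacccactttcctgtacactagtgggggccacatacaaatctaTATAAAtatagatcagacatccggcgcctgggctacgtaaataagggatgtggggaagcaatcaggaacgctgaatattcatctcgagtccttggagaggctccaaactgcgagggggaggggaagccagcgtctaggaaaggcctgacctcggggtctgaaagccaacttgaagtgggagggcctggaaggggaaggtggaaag
Lamc1: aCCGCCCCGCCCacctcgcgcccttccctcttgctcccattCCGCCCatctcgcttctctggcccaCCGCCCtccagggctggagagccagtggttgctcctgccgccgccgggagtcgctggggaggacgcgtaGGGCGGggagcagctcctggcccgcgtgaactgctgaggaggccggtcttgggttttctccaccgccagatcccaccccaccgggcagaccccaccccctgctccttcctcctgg
The GC box occurred 2 times before Itgav, 1 time before Itgb8, 4 times before Itgb1 and 5 times before Lamc1 (neighbouring matches there overlap by 1 base), and 30.5% of 33469 rat promoters of this length held it. Itgb8 also had CCAAT, 91 bases before its start, which 34.0% of promoters held. Lama4 had no GC box in this window and 1 TATAAA, 205 bases before its start, which 12.9% of promoters held. The AP-1 site (6.34% of promoters), the cAMP response element (1.59%) and the E-box (5.59%) had no match in these 5 windows. The GC content was 72.0% for Itgav, 71.2% for Itgb1 and for Lamc1, 56.4% for Itgb8 and 53.2% for Lama4, beside a median of 51.2%. A match is only a run of letters and shows no binding.

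Control and fibril libraries were then compared for each gene. No integrin or laminin gene passed the test: 0 of 8 rose and 0 of 8 fell at an adjusted p of 0.05 (limma on log2(FPKM + 1), adjusted over 10766 genes), where 0% of all genes were called in either direction. With the replicate number as a block, 0 of 8 were called, beside 0.111% of all genes called higher and 0% lower. At an unadjusted limma p under 0.05 there was 1 of 8 (Itgav) without a block, beside 4.02% of genes, and 2 of 8 (Itgav and Itgb8) with it, beside 9.84%. In sign, 7 of 8 log2 differences were negative, where 53.0% of all genes were, and the median over the 8 was -0.52 against -0.04 over all genes. Within replicates 1, 2 and 3 the median over the 8 was -0.61, -0.30 and -1.25. The 8 were filtered on level and are not the whole family, so their median describes the expressed genes alone.

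Itgb1, the shared beta subunit, was level between the groups. It had 75.0, 58.1 and 79.9 FPKM in control replicates 1, 2 and 3 and 80.7, 52.0 and 72.7 FPKM in the fibril replicates. The groups overlapped throughout, with replicate 2 the lowest library of each. The means were 71.0 ± 11.4 and 68.5 ± 14.8 FPKM (SD, n = 3 each), and the log2 difference was -0.06 with an SE of 0.39 (limma adjusted p = 0.996). An SE of this size leaves room for a change in either direction, so the values do not show that Itgb1 was the same.

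Itgav, encoding the alpha v subunit, had the widest difference of the 8. It had 15.8, 31.0 and 56.7 FPKM in control replicates 1, 2 and 3 and 9.71, 19.6 and 1.49 FPKM with fibrils. Each fibril library lay below the control of its number, fibril replicate 3 was far below all others, and the groups overlapped because fibril replicate 2 exceeded control replicate 1. The mean in FPKM was 3.36 times as high in controls as with fibrils. On the log2(FPKM + 1) scale, a separate measure, the difference was -1.94 with an SE of 0.78 (limma adjusted p = 0.96 and unadjusted p = 0.0348). Much of this came from replicate 3, since the differences within replicates 1, 2 and 3 were -0.65, -0.63 and -4.53. Without fibril replicate 3 the log2 difference was -1.08, and without control replicate 3 it was -1.50.

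Itgb8, the beta 8 subunit that pairs only with alpha v, followed the same order of libraries as Itgav. It had 4.03, 17.8 and 35.8 FPKM in control replicates 1, 2 and 3 and 1.84, 12.7 and 1.23 FPKM with fibrils. All 3 fibril libraries again lay below the control of their number, and fibril replicate 2 lay above control replicate 1. The log2 difference was -1.77 with an SE of 0.87 (limma adjusted p = 0.96), and -0.83, -0.45 and -4.05 within replicates 1, 2 and 3. Without fibril replicate 3 it was -1.28, and without control replicate 3 it was -1.13. With control replicate 1 left out it was -2.57.

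FPKM are per length, so the levels of the pair can be set side by side. Itgav was above Itgb8 in all 6 libraries, by 3.93, 1.74 and 1.58 times in the controls and 5.29, 1.54 and 1.22 times with fibrils. The ratio was widest in replicate 1 of both groups, and the groups overlapped. Itgb1 exceeded Itgb8 by 18.6, 3.27 and 2.23 times in the controls and by 44.0, 4.08 and 59.2 times with fibrils, so the ratio was higher with fibrils in each replicate number.

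The other known partners of alpha v were scarce. Itgb5 had 1.82, 2.13 and 1.55 FPKM in control replicates 1, 2 and 3 and 0.799, 0.693 and 2.31 FPKM with fibrils. It was lower with fibrils in replicates 1 and 2 and higher in replicate 3, with a log2 difference of -0.39 and an SE of 0.40 (limma adjusted p = 0.96). Without fibril replicate 3 that difference was -0.69, without fibril replicate 2 it was -0.21 and without fibril replicate 1 it was -0.25. In control replicate 1 the unnamed row AC133403.1, at the same deposited position as Itgb5, had 1.52 FPKM and was at most 0.000546 FPKM elsewhere.

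Itgb3, encoding the beta 3 subunit best known from platelets, was listed at 0 in all 3 fibril libraries. The controls had 0.343, 0.259 and 0.840 FPKM in replicates 1, 2 and 3. By the spacing of low values these equal 1, 3 and 12 times the smallest step, so very few fragments lay behind them if that step was 1 fragment. Steps are rounded, and those of the genes given here lay within 0.12 of a whole number up to 12 steps. Itgb3 was below the filter. Fitted without a filter its adjusted p was 0.912 (limma, unadjusted p = 0.0102). Itgb6 was listed at 0 everywhere.

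Among integrin genes under the filter, the groups did not overlap for Itga2, Itga7 and Itgb3, which were lower, and for Itgb2, which was higher. Of all genes above 0 that were not tested, 3.43% were lower without overlap and 2.59% were higher. The worth of 1 fragment was 6.97 in fibril replicate 1 and 0.817 to 4.04 in the controls. A 0 in that fibril library therefore need not mean a lower level, and the part of depth in these separations was not tested. Itga2, a collagen receptor subunit, was at 0.295, 0.0361 and 0.0295 FPKM in control replicates 1, 2 and 3 and listed at 0 with fibrils. These values equal 2, 1 and 1 steps. Itga7, a laminin receptor subunit of muscle, was at 0.112, 0.144 and 0.234 FPKM without and at 0, 0 and 0.0705 FPKM with fibrils. Without a filter, limma gave all of these genes an adjusted p of 0.912.

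**Figure D2:**
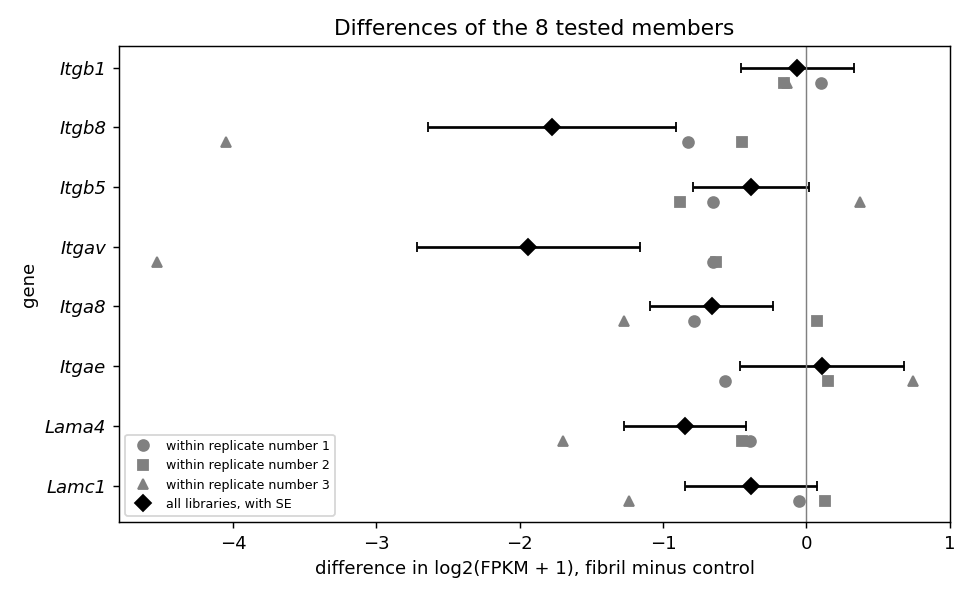
Difference in log2(FPKM + 1), fibril minus control, for the 8 tested genes: black diamonds over all libraries with their standard error, grey markers within each replicate number. For Itgav and Itgb8 the replicate 3 marker lies at -4.53 and -4.05, far below replicates 1 and 2, while Itgb1 lies at -0.06.

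After alpha v, Itga8 was the most abundant alpha subunit that pairs with beta 1. Itga8, known as a nephronectin receptor subunit of kidney development, had 3.56, 4.08 and 6.32 FPKM in control replicates 1, 2 and 3 and 1.65, 4.34 and 2.03 FPKM with fibrils. It was lower with fibrils in replicates 1 and 3, and nearly level in replicate 2. The log2 difference was -0.66 with an SE of 0.43 (limma adjusted p = 0.96), and without fibril replicate 2 it was -0.97.

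Itga6, the alpha subunit of the laminin receptor named above, was low but above 0 in all 6 libraries. It had 1.13, 0.461 and 0.301 FPKM in the controls and 0.487, 0.240 and 0.226 FPKM with fibrils. With its lowest value taken as 3 steps, these equal 12, 20 and 16 steps in the controls and 3, 8 and 5 with fibrils. The groups overlapped, with control replicate 1 the highest library, and the gene was below the filter. Itga9, a receptor subunit for tenascin and osteopontin, had 0.368, 0.226 and 1.77 FPKM in the controls and 0, 0.590 and 0.0888 FPKM with fibrils. Only control replicate 3 reached 1 FPKM for Itga9. The others that can join beta 1 (Itga1, Itga2, Itga3, Itga5, Itga7 and Itga10) never exceeded 0.823 FPKM, a value of Itga5 in fibril replicate 2.

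Itgae, which encodes the alpha E subunit of lymphocytes in epithelia, was at 0.910 FPKM or more in all 6 libraries. It had 6.44, 1.34 and 0.910 FPKM in control replicates 1, 2 and 3 and 4.03, 1.60 and 2.19 FPKM with fibrils. Replicate 1 was the highest library of each group, and the log2 difference was 0.11 with an SE of 0.57 (limma adjusted p = 0.994). Its sign depended on the libraries: it was 0.71 without control replicate 1, -0.27 without control replicate 3, -0.12 without control replicate 2 and -0.16 without fibril replicate 1. Itgb7, the only known partner of alpha E, had 0.0861 FPKM in control replicate 3 and was listed at 0 elsewhere. The table gives Itgae the same position as 5 other genes (chromosome 10, 59529784 to 59711874), among them Ncbp3, an RNA-binding gene, with 8 to 10.4 FPKM. Whether reads were split correctly between these genes was not tested.

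As a class, summed alpha subunit FPKM were 28.1, 38.8 and 66.8 in the controls and 16.1, 30.9 and 7.51 with fibrils. The difference of means was -26.4 FPKM (exact permutation p = 0.2, two-sided, where 3 against 3 cannot go below 0.1), and -15.3 FPKM without control replicate 3. The beta subunit sum was 81.2, 78.8 and 118 against 83.9, 67.9 and 76.9 FPKM, a difference of -16.5 FPKM (exact permutation p = 0.4). Without control replicate 3 the beta difference was -3.74 FPKM and without control replicate 2 it was -23.5 FPKM.

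Shares within a class do not depend on how a library is scaled. Itgav made up 56.4%, 79.9% and 84.9% of the alpha sum in control replicates 1, 2 and 3, and 60.3%, 63.5% and 19.9% with fibrils. Its share was therefore slightly higher with fibrils in replicate 1, and lower in replicates 2 and 3. Itgb8 made up 4.97%, 22.5% and 30.3% of the beta sum in the controls, and 2.19%, 18.8% and 1.60% with fibrils, lower in each replicate number. Itgb1 made up 92.4%, 73.8% and 67.6% against 96.1%, 76.6% and 94.6%, higher in each replicate number. The Itgb8 share differed by -11.8 percentage points and the Itgb1 share by 11.2 (exact permutation p = 0.2 for each, adjusted p = 0.457 over 8 shares). Itgb1 and Itgb8 fill nearly all of the beta sum, so their shares mirror each other and are not separate results. Without control replicate 3 the Itgb8 share differed by -6.24 points and the Itgb1 share by 6.05. Without control replicate 1 they differed by -18.9 and 18.4 points, and without fibril replicate 2 by -17.4 and 17.5. None of the 8 shares had groups that did not overlap.

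**Figure D3:**
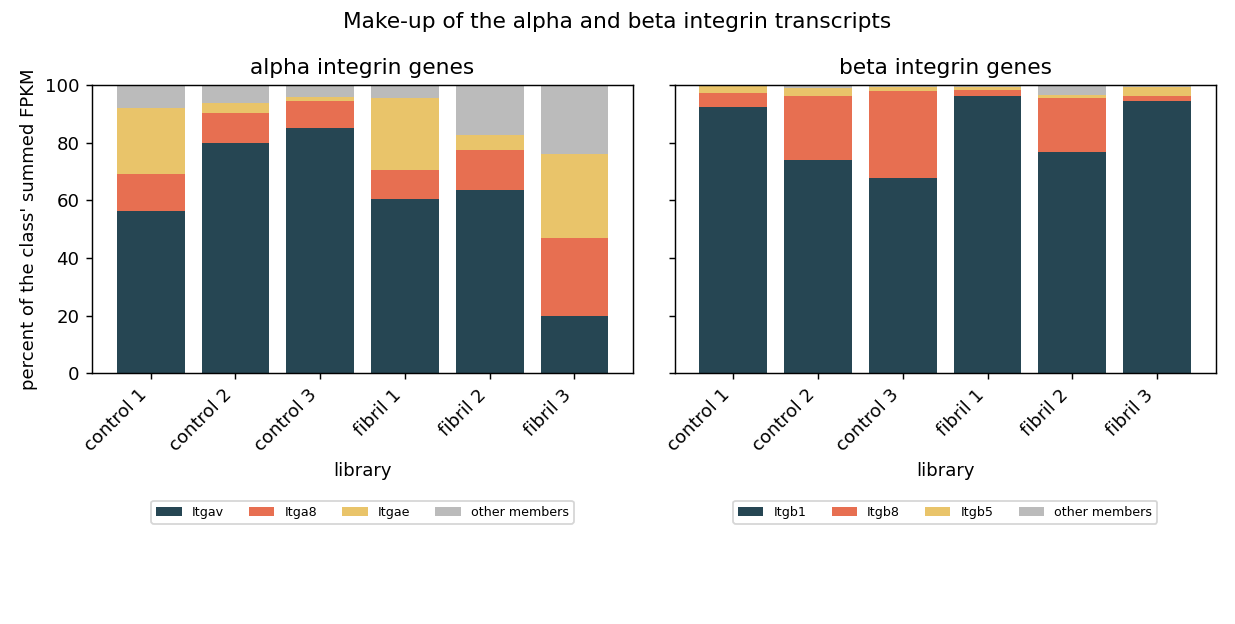
Stacked bars of the percent that each gene takes of the summed FPKM of alpha subunits (left) and beta subunits (right) in each library. Itgav takes 19.9% of the alpha sum in fibril replicate 3, and Itgb8 ranges from 1.60% there to 30.3% in control replicate 3.

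The leukocyte integrins were low in every library. Itgb2, Itgal and the joined row of Itgam were highest in fibril replicate 2, and Itgax in fibril replicate 3. Itgb2, their shared beta subunit, had 0, 0.535 and 0 FPKM in control replicates 1, 2 and 3 and 0.625, 2.44 and 0.613 FPKM with fibrils. All 3 fibril libraries lay above all 3 controls. With its lowest library value taken as 2 steps to give whole numbers, Itgb2 had 12 steps in control replicate 2 and 2, 42 and 7 steps with fibrils. Fitted without a filter, the log2 difference was 0.85 with an SE of 0.35 (limma adjusted p = 0.912 and unadjusted p = 0.0462).

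Itgal, the alpha L subunit, had 0, 0.614 and 0 FPKM in the controls and 0.216, 2.88 and 0.603 FPKM with fibrils. It was higher with fibrils in each replicate number, but control replicate 2 lay above fibril replicates 1 and 3. Itgax, the alpha X subunit, had 0, 0.0296 and 0 FPKM against 0, 0.270 and 0.291 FPKM, or 1 step in control replicate 2 and 7 and 5 steps in fibril replicates 2 and 3. The joined row Itgam,Itgad, which covers alpha M and alpha D, had 0, 0.365 and 0.0331 FPKM against 0, 1.43 and 0.381 FPKM. The table gives this row and Itgax the same position (chromosome 1, 199495297 to 199623960), and these genes are close relatives, so the split between them is uncertain.

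All 18 microglia and macrophage markers were above 0 in at least 1 library, and their summed level was 16.5, 80.5 and 16.7 FPKM in control replicates 1, 2 and 3 and 25.7, 114 and 71.4 FPKM with fibrils. Control replicate 2 was the control with the most marker transcript and the only one with Itgb2 above 0. Of the 18, 10 were tested, 7 were positive, 0 were called by limma, and the median log2 difference was 0.88. A positive gene among them reached 1 FPKM with fibrils alone, so passing the filter fixed its sign. Tyrobp, a myeloid adaptor, had 0, 4.48 and 0 FPKM in the controls against 1.93, 18.7 and 8.76 FPKM, and Cx3cr1, a defining microglial receptor, was listed at 0 except in control replicate 2 (0.800 FPKM). C1qa, C1qb and C1qc were also highest in control replicate 2, at 10.3, 8.36 and 7.44 FPKM, and had at most 3.67 FPKM with fibrils. Of 9 neutrophil and T cell markers, 7 were listed at 0 in every library, and S100a8 had 7.05 FPKM in fibril replicate 2 alone. In bulk RNA, fewer cells of a type and less RNA per cell cannot be told apart, and the part of other cells in these values was not tested.

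**Figure D4:**
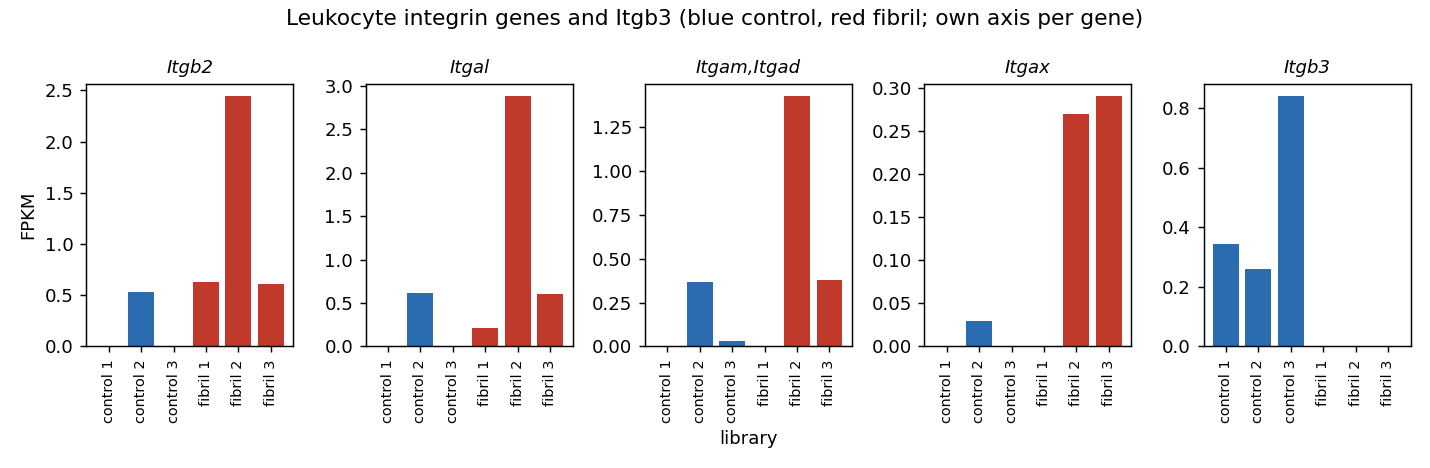
FPKM of Itgb2, Itgal, the joined row Itgam,Itgad, Itgax and Itgb3 in each library (blue control, red fibril; each gene has its own axis from 0). Fibril replicate 2 is highest for the first 3, at 2.44, 2.88 and 1.43 FPKM, and Itgb3 is listed at 0 in all fibril libraries.

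Of the laminins, the alpha 4 and gamma 1 chains made up nearly all transcript. Lama4, the alpha 4 chain best known from vessel walls, had 9.10, 13.4 and 16.4 FPKM in control replicates 1, 2 and 3 and 6.68, 9.58 and 4.35 FPKM with fibrils. Each fibril library lay below the control of its number, and fibril replicate 2 lay just above control replicate 1. The log2 difference was -0.85 with an SE of 0.42 (limma adjusted p = 0.96), with -0.40, -0.45 and -1.70 within replicates 1, 2 and 3. It was -0.60 without fibril replicate 3. Endothelial markers, which could mark vessel cells, summed to at most 0.742 FPKM in any library over 9 genes, with Cldn5, Tie1 and Emcn listed at 0 throughout. Fam229b, at the same deposited position as Lama4, had 0 to 2.33 FPKM in controls and 1.69 to 5.57 FPKM with fibrils.

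Lamc1, the common gamma chain, had 7.40, 7.42 and 20.4 FPKM in the controls and 7.11, 8.21 and 8.05 FPKM with fibrils. The 3 fibril libraries and 2 of the controls lay between 7.11 and 8.21 FPKM, and control replicate 3 stood apart. The log2 difference of -0.39 (SE 0.46, limma adjusted p = 0.961) became 0.06 without that library. Lama4 and Lamc1 were at similar levels, with Lama4 over Lamc1 at 1.23, 1.81 and 0.805 in the controls and 0.939, 1.17 and 0.541 with fibrils, lower with fibrils in each replicate number.

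Beta chain transcripts, of which each laminin trimer holds 1, were scarce. Summed over Lamb1, Lamb2 and Lamb3 they had 0.1, 0.415 and 0.598 FPKM in the controls and 0.172, 0.127 and 0.479 FPKM with fibrils. The alpha chains summed to 4.70 to 16.7 FPKM and the gamma chains to 7.11 to 20.5 FPKM over the 6 libraries. Lama2, the chain known from myelination, had 0, 0.0436 and 0.0711 FPKM in the controls and 0, 0.0379 and 0.0285 FPKM with fibrils, or at most 6 steps. Lama1, Lama3 and Lama5 stayed at or under 0.186 FPKM. As a class, laminins summed to 16.9, 21.6 and 37.9 FPKM in the controls and 14.0, 18.2 and 13.3 FPKM with fibrils (difference of means -10.3 FPKM, exact permutation p = 0.2). Without control replicate 3 that difference was -4.05 FPKM.

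**Figure D5:**
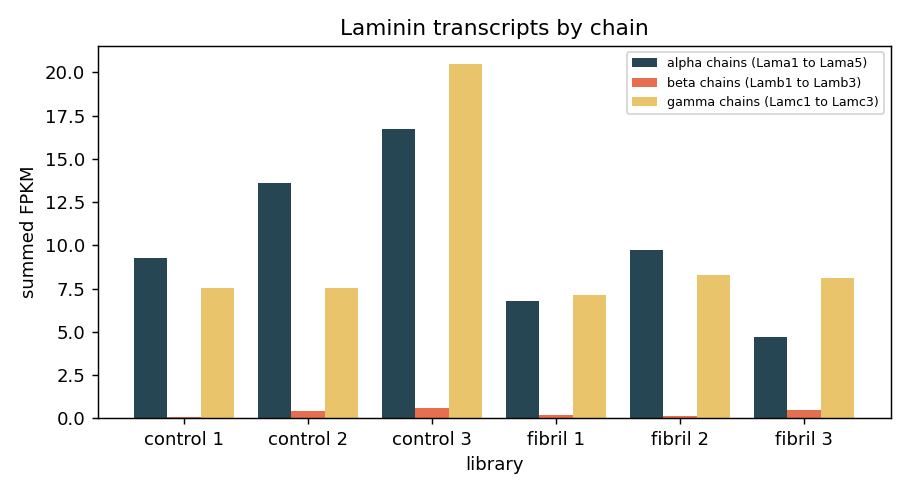
Summed FPKM of laminin alpha, beta and gamma chain genes in each library. The beta chains reach at most 0.598 FPKM, while alpha chains range from 4.70 to 16.7 FPKM and gamma chains from 7.11 to 20.5 FPKM.

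Itgav, Itgb8 and Lama4 were the 3 of 8 tested genes whose fibril library was the lower one in each of the 3 replicate numbers, which held for 19.3% of all genes. The labels state no pairing, and in replicates 2 and 3 crossed numbers correlated more closely, so this count rests on the number alone. For 0 of 8 did the groups separate, beside 5.30% of all genes that were lower and 4.24% that were higher without overlap. Marker lists of other cell types are given beside these values. Of 11 tested astrocyte markers 9 were negative (median log2 difference -1.36, 0 called by limma), and the sum of the list was 249 to 309 FPKM in controls and 127 to 291 FPKM with fibrils. The other 2 were positive, and 1 of them was higher with fibrils without overlap. Of the negative ones, 4 were lower without overlap, so the list did not move as 1. Some genes of this list, in both directions, reached 1 FPKM in a single group, so passing the filter fixed their sign. Of that list Gjb6 was listed at 0 throughout. Of 13 neuron markers 12 were negative (median -0.62, 0 called), and their sum was 598 to 955 FPKM in controls and 374 to 645 FPKM with fibrils. The fibroblast and mural list had 2 tested genes of 12, and its sum was 13.4 to 100 FPKM against 11.3 to 34.8 FPKM, with Col1a2, Lum, Acta2 and Kcnj8 listed at 0 in every library. In replicates 2 and 3 most of that sum was Cspg4, a gene also on the oligodendrocyte lineage list. Cspg4 had 4.59, 31.5 and 98.8 FPKM in control replicates 1, 2 and 3 and 3.22, 23.6 and 25.3 FPKM with fibrils. Tagln, the other tested gene, had 8.75, 0.679 and 1.47 against 8.09, 1.05 and 9.32 FPKM. The sum therefore does not measure fibroblast or mural transcript. Of 15 tested oligodendrocyte lineage markers 9 were positive (median 0.55, 0 called by limma), 6 were higher without overlap, and their sum was 2439 to 6342 FPKM in controls and 5123 to 9408 FPKM with fibrils. Among them were Cldn11, Mag, Enpp6, Cnp and Myrf, genes of maturing oligodendrocytes, of which Enpp6 and Mag were called with the replicate block. The 6 genes of this list with negative log2 differences were not called: Ptprz1 -1.23, Pdgfra -1.02, Cspg4 -0.91, Gpr17 -0.65, Olig2 -0.41 and Olig1 -0.31. They are grouped here by sign and are not a set of precursor genes fixed beforehand. Sox10, a factor of the lineage, was positive at 0.32 and not called. Pdgfra, the PDGF receptor of precursors, had 47.5, 146 and 304 FPKM in control replicates 1, 2 and 3 and 43.4, 95.3 and 60.2 FPKM with fibrils, lower in each replicate number as Itgav and Itgb8 were. The 4 tested Schwann cell markers had a median of -0.003. The part of these cells, or of their maturity, in the integrin and laminin values was not tested.

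Genes that work with integrins inside the cell showed no shared direction. Of the 33 tested genes of the adhesome, the proteins that link integrins to actin and to signalling, 17 were positive and 16 negative, with a median log2 difference of 0.007 and 0 called by limma. Ilk, the integrin-linked pseudokinase that binds beta tails, had 46.4, 53.9 and 43.8 FPKM in the controls and 87.2, 58.6 and 115 FPKM with fibrils, all 3 above all controls (log2 difference 0.80, SE 0.41, limma adjusted p = 0.96). Tns3, a tensin that binds beta tails, had 43.1, 25.4 and 47.8 against 74.3, 106 and 61.6 FPKM, also without overlap. Parvb, a partner of Ilk, had 3.21, 1.48 and 2.16 against 4.03, 3.53 and 5.71 FPKM. Ptk2, the focal adhesion kinase, had 20.8, 37.3 and 38.7 against 13.5, 25.5 and 14.6 FPKM, lower in each replicate number. Nedd9, a docking protein of that kinase, had 1.82, 1.03 and 1.21 against 0.562, 0.455 and 0.374 FPKM. It reached 1 FPKM in controls alone, so passing the filter fixed its negative sign. The limma adjusted p of these 5 was 0.96 without a block and 0.481 to 0.511 with it.

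Of 21 tested genes of the basement membrane and of other laminin receptors, 15 were negative, the median log2 difference was -0.44 and 0 were called by limma. Nid1, encoding nidogen, which binds the laminin gamma 1 chain, had 2.08, 2.85 and 2.97 FPKM in the controls and 0, 0.661 and 0.663 FPKM with fibrils, without overlap (log2 difference -1.36, SE 0.38, limma adjusted p = 0.948). Nid1, and Utrn of the same list, reached 1 FPKM in controls alone. Passing the filter therefore fixed their negative sign and their lack of overlap. Ntn4, a netrin related to laminin, had 3.96, 5.56 and 5.02 against 0.478, 2.82 and 0.771 FPKM, also without overlap. Sspn, of the dystrophin complex, had 3.05, 3.98 and 3.92 against 1.10, 2.16 and 1.08 FPKM. Sgcd, another gene of that complex, had 1.81, 5.80 and 8.96 against 0, 3.31 and 0.356 FPKM. Ntn1, a guidance netrin, had 10.1, 23.4 and 47.2 against 8.17, 24.2 and 3.71 FPKM, an order of libraries close to that of Itgav. The limma adjusted p was at least 0.948 for Nid1, Ntn4, Sspn, Sgcd and Ntn1, and 0.308 to 0.512 with a block.

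Of 9 tested genes for other integrin ligands, 8 were negative, the median log2 difference was -0.57 and 0 were called by limma. Edil3, a ligand of alpha v integrins, had 2.31, 5.18 and 8.93 FPKM in the controls and 1.76, 2.37 and 1.29 FPKM with fibrils. Adam9, a membrane protease that integrins bind, had 41.1, 36.8 and 60.3 against 26.8, 32.0 and 15.9 FPKM, without overlap. Vcam1, the ligand of alpha 4 beta 1, had 3.46, 1.54 and 1.83 against 0.328, 0.625 and 1.46 FPKM, also without overlap. Cd47, an integrin-associated protein, had 27.9, 16.3 and 18.9 against 18.0, 13.5 and 10.1 FPKM. Tgfb2, a form of TGF-beta, was the 1 positive gene, with 24.2, 10.6 and 20.2 against 33.3, 16.4 and 29.1 FPKM. These 5 had a limma adjusted p of 0.96 without a block and of 0.492 to 0.519 with it.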

How the data were processed

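The authors deposited 1 table of FPKM for 6 RNA-seq libraries, 1 column per library, per the file headers. Libraries were made with a strand-specific kit, per the labels' protocols. The submitters' processing notes list Trimmomatic and FastQC. The aligner, quantifier and build are not given in the sources consulted, so positions are printed as deposited. Several genes share 1 deposited position.

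FPKM are not counts and total depth is unknown. The relative worth of 1 fragment was read from ratios of values under 1 FPKM (tolerance 0.03 on the log2 scale), with control replicate 1 placed by 135 genes at their lowest step in the deeper libraries and fibril replicate 1 placed against it. The 10766 genes that reached 1 FPKM in 3 or more libraries were tested as log2(FPKM + 1) with limma 3.58.1 in R 4.3.3 (mean-variance trend, two-sided, Benjamini-Hochberg over all genes, threshold 0.05); the fit was tested on simulated data. Fold changes on this scale understate those of low genes. Class sums and shares had exact permutation tests.

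Same-numbered libraries correlated in their deviations from group means at 0.747, 0.364 and 0.216 (replicates 1, 2 and 3), all above the 0.1 set for pairing, so a replicate block was also fitted. Crossed numbers gave higher values for replicates 2 and 3 (0.500 for control 3 and fibril 2, 0.433 for control 2 and fibril 3), and the labels state no pairing, so values within replicate numbers 2 and 3 rest on the number alone. Every per-sample column matched 1 sample. Genes named were all members at 1 FPKM in any library, those whose groups did not overlap, fixed subunits, and from each pathway list the 5 smallest p-values; cell type markers and Hprt1, Rps6, Ncbp3 and AC133403.1 lie outside this rule. Members and lists were chosen with earlier results of these data known. The plan had edgeR for counts, which did not apply. The values of 1 member and 1 marker are not reported here.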

Additional observations from a re-analysis of the deposited data

How the results depend on the processing

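Across the 16 alternatives (replicate block, pseudocounts 0.1 and 5, no filter, a mean of at least 5 FPKM, quantile normalization, scaling without mitochondrial genes, each library left out, replicates 2 and 3 only, block with that scaling, and a term for replicate 1), 0 integrin or laminin genes passed an adjusted p of 0.05. Over all genes, 0 passed in the main test, 12 with the replicate block, 1 with the block and scaling without mitochondrial genes, 19 with the term for replicate 1, and 0 to 3 with 1 library left out (3 without fibril replicate 3). Itgav, Itgb8, Lama4, Itga8 and Itgb5 stayed negative under every alternative that could test them (Itgav -2.61 to -1.08, Itgb8 -2.59 to -1.13). Itgae, at 0.11, was -4.79e-05 with a pseudocount of 5, -0.070 scaled without mitochondrial genes, with and without the block, and -0.27 to 0.71 with 1 library left out. With 1 library left out, Itgb1 ran from -0.20 to 0.12 and Lamc1 from -0.61 to 0.062. The cause was not tested. Scaling without mitochondrial genes moved the median of all genes to -0.30, and relative to it Itgav was -1.89, Itgb8 -1.71, Lama4 -0.82 and Itgb1 -0.07. Relative to that median Itgae was 0.23, so its sign change under this scaling went with the shift of all genes. In the main test Itgae was 0.15 relative to the median. The median of the fitted members ran from -0.85 (mean of at least 5 FPKM) to -0.06 (no filter). These 2 ends cover different genes, since a mean of at least 5 FPKM kept only the most abundant and no filter kept all 29 above 0. Over the same 8 members the median ran from -0.78 (scaled without mitochondrial genes) to -0.32 (pseudocount 5). The mean difference of all 3 class sums and 8 shares kept its sign with any 1 library left out, although single replicate numbers went the other way, such as the beta sum in replicate 1.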
